A study of Mus musculus with 32 samples.

Results

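The insulin-like growth factor 1 (IGF1) axis was examined here through 9 member genes, the ligand Igf1, the receptors Igf1r and Igf2r, and the binding proteins Igfbp2, Igfbp3, Igfbp4, Igfbp5, Igfbp6 and Igfbp7. The members were chosen by name, with earlier results of these data known. They came from 18193 genes with a probe set of their own on either of 2 Affymetrix array types, called array A and array B here. They had 26 probe sets of their own, of which 25 passed the filter on low values, which kept means from the 40th percentile of each array type upwards. Igfbp4 had 6 of these probe sets, Igf1r 5, Igf1 4, Igfbp7 3, Igf2r, Igfbp3 and Igfbp5 2 each, and Igfbp2 and Igfbp6 1 each. The probe set that did not pass, 1437804_at of Igfbp7, lay between 0.57 and 1.30 on the log2 scale in the 16 samples. A further probe set, annotated to Airn and Igf2r together, was left out of every count.

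IGF1 is a secreted growth factor that binds IGF1R, a receptor tyrosine kinase that signals through the insulin receptor substrates to phosphatidylinositol 3-kinase and AKT, and it promotes growth and survival of fibroblasts. IGF2R, the cation-independent mannose 6-phosphate receptor, has no kinase domain, takes IGF2 into the cell and carries lysosomal enzymes. Igfbp2 to Igfbp6 encode secreted proteins that hold IGFs in the medium or the matrix and set how much reaches the receptor, and Igfbp7 encodes a related secreted protein with low affinity for IGFs. In human cells IGFBP3 has been described as a gene that the tumour suppressor p53 induces after DNA damage, which makes the family of interest in irradiated cells.

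The samples were early-passage primary mouse embryonic fibroblasts (MEFs) in 4 groups: irradiated Oct-1 mutant cells, irradiated wild type cells, unirradiated Oct-1 mutant cells and unirradiated wild type cells. Each group had 4 replicates, and each of the 16 RNA extracts was measured on both array types, which gave 32 samples. Oct-1 is a DNA-binding factor of the POU family, and its own gene, Pou2f1, was not analysed here. The kind of mutation, strain, embryo age, radiation dose, time after irradiation and whether replicates came from separate embryos or cultures are not stated in the labels, so the p-values measure the spread between these samples, which may be technical. The title numbers of the samples fell into 2 runs, with replicates 1 and 2 of every group in the first and replicates 3 and 4 in the second, and what the runs stand for is not given either.

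The median log2 value of a sample was 6.16 to 6.28 for array A, against 3.67 to 3.78 for array B. Of 12 fibroblast markers 12 passed the filter on array A, while 0 of 5 endothelial and 3 of 8 macrophage and blood markers did. So did 4 of 5 neural and glial, 3 of 5 adipocyte and 2 of 5 cartilage and bone markers with a probe set. The skeletal muscle and epithelial lists had 1 of 7 and 1 of 5. The DNA damage genes Cdkn1a and Mdm2 were 2.92-fold and 2.53-fold higher in irradiated than in unirradiated mutant cells, and 4.29-fold and 2.93-fold higher in irradiated than in unirradiated wild type cells. The mitotic kinase gene Plk1 was lower after irradiation, with log2 differences of -1.86 in mutant and -1.57 in wild type cells.

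More members were called between genotypes than after irradiation, though without a block only 4 of the 9 genes were called between genotypes. Averaged over the irradiation states, 8 of the 25 member probe sets (32%) were called higher in Oct-1 mutant cells and 0 lower (9 in all at an unadjusted p under 0.05), against 3.77% of the 27083 probe sets tested that were called higher in mutant cells. A probe set was called where limma, fitted to all 4 groups of one array type, gave a Benjamini-Hochberg adjusted p under 0.05. The 8 probe sets were the 4 of Igf1, the 2 of Igfbp3, 1 of the 2 of Igfbp5 and that of Igfbp6, so the ligand and 3 binding proteins were higher and neither receptor was called. A fit with the replicate number as a block called 11, adding Igfbp2 and 2 probe sets of Igfbp7, against 7.21% of all probe sets. With the run of title numbers as the block in its place the count was also 11. The median difference of the 25 was 0.12 on the log2 scale, against 0.015 over all probe sets tested, and 18 of the 25 were above 0, against 55.6% of all. Because the members were chosen with earlier results of these data known, the shares here and by irradiation state are descriptions. They are not an independent test of the family.

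By irradiation state, 6 of the 25 were called higher in mutant cells among irradiated samples and 0 lower (10 with the replicate block), against 1.41% of all probe sets (3.56% with the block). Among unirradiated samples 7 were called higher and 0 lower (10 with the block), against 1.45% of all (3.64% with the block). That count of 7 became 3 without unirradiated mutant replicate 4, and 4 without unirradiated mutant replicate 3 or without unirradiated wild type replicate 1, 2 or 3. In 6 member probe sets of 4 genes every one of the 8 mutant samples lay above every one of the 8 wild type samples, which held for 1.06% of all probe sets tested.

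**Figure D1:**
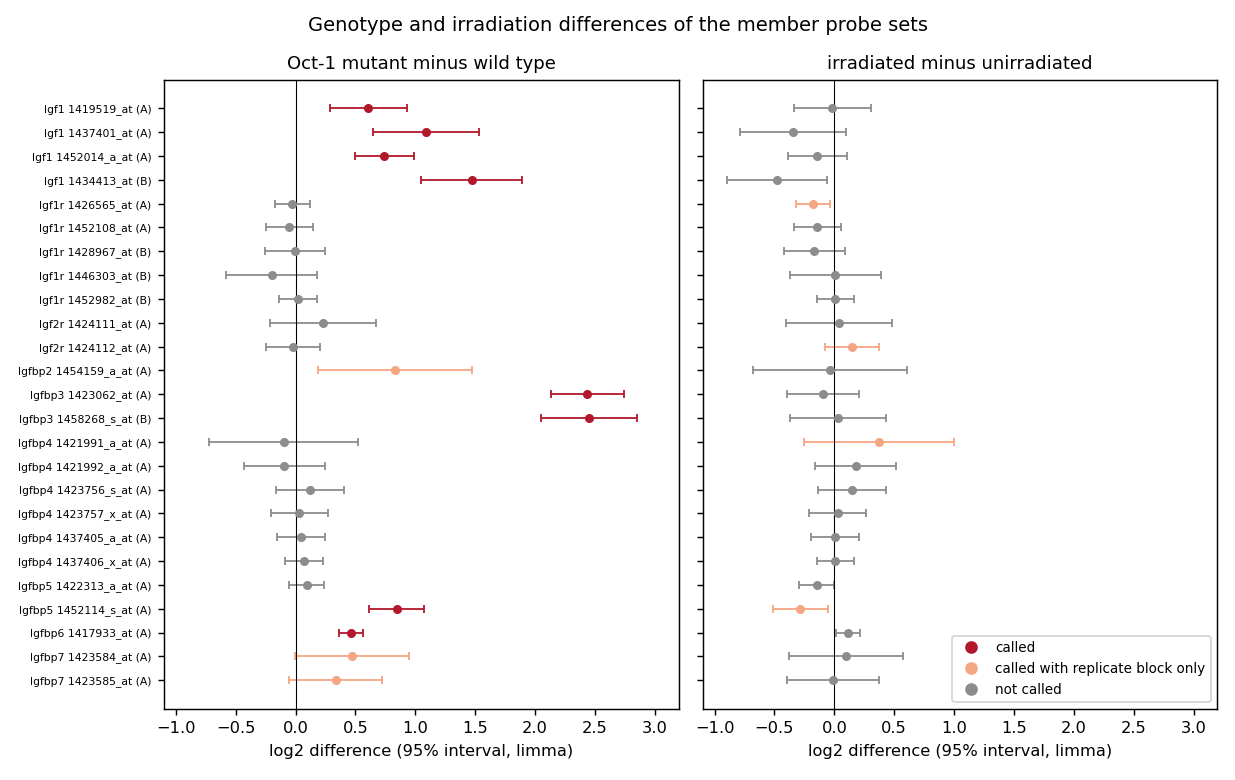
Difference on the log2 scale with its 95% interval for each of the 25 member probe sets, Oct-1 mutant minus wild type in the left panel and irradiated minus unirradiated in the right panel. The letter in brackets is the array type, and colour marks probe sets called without a block, with the replicate block only, or not at all. The 2 Igfbp3 probe sets stand farthest from 0 in the left panel, at 2.44 and 2.45, and all points of the right panel lie between -0.48 and 0.38.

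The upstream sequences of the 4 genes that were higher in mutant cells are shown because the mutated factor binds DNA, and Oct-1 is known for the octamer ATGCAAAT. The windows come from RefSeq (build GRCm38.p6) and run from 250 bases before to 50 bases after the annotated start of each gene, written 5′ to 3′ on the strand of the gene. They lie at chr10:87860861-87861160, plus strand for Igf1, chr11:7213874-7214173, minus strand for Igfbp3, chr1:72874816-72875115, minus strand for Igfbp5 and chr15:102143936-102144235, plus strand for Igfbp6. Capitals mark every match on either strand to the octamer ATGCAAAT with any 1 letter free, to the TATA box letters TATAAA, to the CCAAT box or to the GC box letters GGGCGG.
Igf1: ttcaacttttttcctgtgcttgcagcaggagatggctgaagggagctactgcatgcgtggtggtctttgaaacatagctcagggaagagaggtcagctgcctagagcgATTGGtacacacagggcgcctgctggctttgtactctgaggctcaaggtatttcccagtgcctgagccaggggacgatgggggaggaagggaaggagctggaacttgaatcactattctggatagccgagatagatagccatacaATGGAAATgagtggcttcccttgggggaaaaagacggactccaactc
Igfbp3: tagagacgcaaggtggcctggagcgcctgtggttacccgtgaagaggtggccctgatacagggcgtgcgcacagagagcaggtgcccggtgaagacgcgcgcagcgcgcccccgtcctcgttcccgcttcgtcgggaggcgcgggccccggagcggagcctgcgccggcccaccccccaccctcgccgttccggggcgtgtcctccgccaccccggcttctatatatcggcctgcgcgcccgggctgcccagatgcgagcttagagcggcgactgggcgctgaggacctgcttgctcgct
Igfbp5: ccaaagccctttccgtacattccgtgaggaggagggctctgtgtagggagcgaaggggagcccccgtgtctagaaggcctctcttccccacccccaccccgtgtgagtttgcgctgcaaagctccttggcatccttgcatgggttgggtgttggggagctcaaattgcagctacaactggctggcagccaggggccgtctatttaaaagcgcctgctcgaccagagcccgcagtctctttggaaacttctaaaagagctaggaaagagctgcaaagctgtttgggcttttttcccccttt
Igfbp6: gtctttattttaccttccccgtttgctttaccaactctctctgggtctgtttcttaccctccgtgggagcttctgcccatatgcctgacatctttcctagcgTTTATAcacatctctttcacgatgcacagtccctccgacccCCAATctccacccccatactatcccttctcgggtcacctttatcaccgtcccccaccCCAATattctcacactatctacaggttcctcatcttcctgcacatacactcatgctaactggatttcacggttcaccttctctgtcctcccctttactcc
The exact octamer was in none of the 10 windows of the 9 members (Igfbp2 has 2 windows), and it was in 1.74% of the 32851 windows of all genes. With 1 letter free it matched once among the members, as ATGGAAAT in Igf1, beginning at base 4 after the start, and 18.6% of all windows held such a match. CCAAT (in 37.4% of all windows) was in Igf1, beginning 142 bases before the start on the opposite strand, and in Igfbp6, beginning 107 and 50 bases before it. TATAAA (in 13.6% of all) was in Igfbp6, beginning 148 bases before the start on the opposite strand, and in Igfbp4, 28 bases before it. GGGCGG (in 35.7% of all) was in 1 window of Igfbp2 and in those of Igfbp7, Igf1r and Igf2r, and in none of the 4 shown. No 2 of these matches overlapped, though 2 copies of GGGCGG adjoined in Igf2r. A match is a description of the letters and not a bound site, and no match says only that these letters are absent from the window.

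Igf1, the ligand, was higher in mutant cells on all 4 of its probe sets. On array B, probe set 1434413_at had 5.93, 5.89, 6.67 and 6.59 in irradiated mutant cells, against 5.37, 4.98, 4.35 and 4.16 in irradiated wild type cells. It had 6.25, 6.44, 7.13 and 6.83 in unirradiated mutant cells and 5.58, 5.42, 5.16 and 4.95 in unirradiated wild type cells. All 8 mutant samples lay above all 8 wild type samples. The group means were 6.27 ± 0.42 in irradiated and 6.66 ± 0.40 in unirradiated mutant cells, and 4.71 ± 0.56 in irradiated and 5.28 ± 0.28 in unirradiated wild type cells (SD, n = 4). The difference averaged over irradiation states was 1.47 (SE 0.20, adjusted p = 9.14e-04), or 2.77-fold (95% interval 2.07 to 3.71), the largest of the 4. Among irradiated samples it was 1.55 (adjusted p = 0.0224), and this call was lost without irradiated mutant replicate 3 or 4 or irradiated wild type replicate 3 or 4, at adjusted p of 0.0793, 0.0968, 0.0870 and 0.0686. Among unirradiated samples it was 1.39 (adjusted p = 0.0441), a call that was lost in 13 of the 16 fits that left out 1 sample, at adjusted p of up to 0.149. It was kept only without unirradiated mutant replicate 1 or irradiated wild type replicate 1 or 4.

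On array A, the Igf1 probe set 1452014_a_at had 7.23, 7.23, 6.83 and 7.68 in irradiated mutant cells, against 6.41, 6.39, 6.83 and 6.32 in irradiated wild type cells. Its values were 7.15, 7.48, 7.20 and 7.63 in unirradiated mutant cells and 6.76, 6.65, 6.54 and 6.62 in unirradiated wild type cells. The genotypes did not overlap, though the lowest mutant value, in irradiated replicate 3, was only 0.0039 above the highest wild type value, in irradiated replicate 3. The difference was 0.74 (SE 0.12, adjusted p = 5.24e-04), or 1.67-fold (1.41 to 1.98). It was 0.76 among irradiated (adjusted p = 0.0138) and 0.72 among unirradiated samples (adjusted p = 0.0193). The unirradiated call was lost without unirradiated mutant replicate 2 or 4 or unirradiated wild type replicate 3, at adjusted p of 0.0554, 0.0680 and 0.0584.

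Probe set 1437401_at of Igf1 had 6.66, 6.43, 7.35 and 7.69 in irradiated mutant cells, against 5.63, 6.10, 6.33 and 6.17 in irradiated wild type cells. Its values were 6.97, 7.0, 7.78 and 8.21 in unirradiated mutant cells and 6.26, 6.09, 6.53 and 6.29 in unirradiated wild type cells. Only irradiated mutant replicate 2, at 6.43, fell within the wild type range. The difference was 1.09 (SE 0.21, adjusted p = 0.00269), or 2.12-fold (1.56 to 2.89). By state it was 0.97 in irradiated (adjusted p = 0.0860, 0.00200 with the replicate block) and 1.20 in unirradiated samples (adjusted p = 0.0325). Over all alternatives the irradiated adjusted p ranged from 8.57e-04 to 0.268, and it was 0.0492 without irradiated mutant replicate 2. The unirradiated call was lost without any 1 of the 4 unirradiated wild type replicates or without unirradiated mutant replicate 3 or 4, at adjusted p between 0.0505 and 0.101.

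The last Igf1 probe set, 1419519_at, had 6.92, 6.29, 7.24 and 7.32 in irradiated mutant cells, against 5.84, 6.28, 6.52 and 6.42 in irradiated wild type cells. It had 6.71, 6.73, 7.35 and 6.78 in unirradiated mutant cells and 6.33, 6.18, 6.57 and 6.34 in unirradiated wild type cells. Here irradiated mutant replicate 2, at 6.29, lay among the wild type samples, and the other mutant samples lay above them. The difference was the smallest of the 4, 0.61 (SE 0.15, adjusted p = 0.0162), or 1.52-fold (1.22 to 1.90). The state by state differences, 0.68 in irradiated and 0.54 in unirradiated samples, were called with the replicate block only (adjusted p = 0.00768 and 0.0301, without the block 0.104 and 0.228). Over all alternatives these ranged from 0.00636 to 0.296 in irradiated and from 0.0274 to 0.515 in unirradiated samples, and the irradiated adjusted p was 0.0154 without irradiated mutant replicate 2. In each of the 8 pairs of samples with the same replicate number and irradiation state, all 4 probe sets were higher in the mutant sample, by 0.0039 to 2.43. The 4 differed in size and not in direction.

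**Figure D2:**
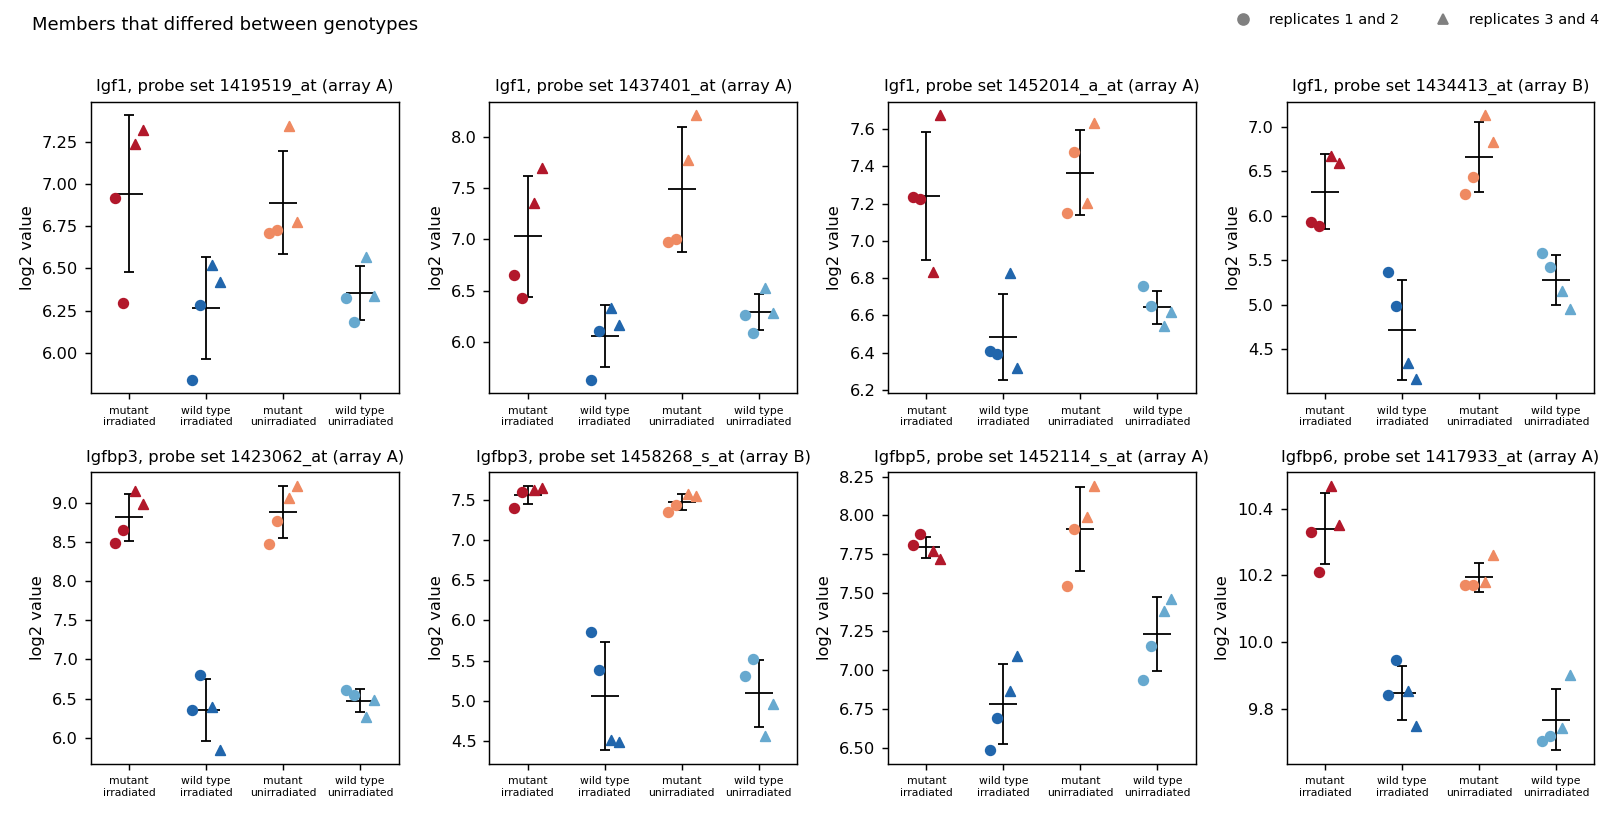
Log2 value of each sample (vertical axis) in the 4 groups for the 8 member probe sets called between genotypes. Circles are replicates 1 and 2, triangles replicates 3 and 4, and bars show the group mean and SD (n = 4). In the Igfbp3 panels the mutant samples lie between 8.48 and 9.22 (array A) and between 7.36 and 7.65 (array B), far above every wild type sample, while the Igf1 panels are more spread.

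Neither receptor was called between genotypes. The 5 probe sets of Igf1r, the signalling receptor, differed by -0.20 to 0.018 on the log2 scale, with adjusted p between 0.549 and 0.984. The 95% interval of the difference was -0.17 to 0.12 for 1426565_at and -0.14 to 0.17 for 1452982_at, so differences as large as those of Igf1 lay outside the intervals of these 2 probe sets. It was widest for 1446303_at, -0.58 to 0.18. The 2 probe sets of Igf2r, the clearance receptor, differed by 0.23 (interval -0.21 to 0.67, adjusted p = 0.566) and -0.024 (interval -0.25 to 0.20, adjusted p = 0.932).

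Igfbp3, which encodes the main IGF carrier of the circulation, had the largest genotype difference of the family. On array A, probe set 1423062_at had 8.49, 8.66, 9.14 and 8.98 in irradiated mutant cells, against 6.36, 6.81, 6.39 and 5.84 in irradiated wild type cells. It had 8.48, 8.77, 9.06 and 9.22 in unirradiated mutant cells and 6.60, 6.54, 6.26 and 6.49 in unirradiated wild type cells. The gap between the genotypes, between a lowest mutant value of 8.48 and a highest wild type value of 6.81, was wider than the spread within either. The difference was 2.44 (SE 0.14, adjusted p = 1.47e-08), or 5.42-fold (4.39 to 6.68). It was 2.47 among irradiated (adjusted p = 1.60e-06) and 2.41 among unirradiated samples (adjusted p = 2.67e-06).

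The second Igfbp3 probe set, 1458268_s_at on array B, had 7.40, 7.60, 7.63 and 7.64 in irradiated mutant cells, against 5.86, 5.38, 4.50 and 4.49 in irradiated wild type cells. It had 7.36, 7.45, 7.57 and 7.55 in unirradiated mutant cells and 5.31, 5.52, 4.57 and 4.96 in unirradiated wild type cells. Again no wild type sample reached a mutant one, and the wild type values of the second run, replicates 3 and 4, were lower than those of the first. The difference was 2.45 (SE 0.19, adjusted p = 4.10e-06), or 5.47-fold (4.15 to 7.22), and it was 2.51 (adjusted p = 2.68e-04) in irradiated and 2.39 (adjusted p = 4.37e-04) in unirradiated samples. The array types hold different probe sets and were tested separately, and on both the 2 mutant groups of Igfbp3 stood above the 2 wild type groups. Within a genotype the distance between irradiated and unirradiated means was no larger than the larger of the 2 SDs.

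Igfbp6, whose product binds IGF2 in preference to IGF1, was higher in mutant cells by a small and even step. Probe set 1417933_at had 10.33, 10.21, 10.47 and 10.35 in irradiated mutant cells, against 9.84, 9.95, 9.85 and 9.75 in irradiated wild type cells. It had 10.17, 10.17, 10.18 and 10.26 in unirradiated mutant cells and 9.70, 9.72, 9.74 and 9.90 in unirradiated wild type cells. All 8 mutant samples (10.17 to 10.47) lay above all 8 wild type samples (9.70 to 9.95). The difference was 0.46 (SE 0.048, adjusted p = 9.75e-06), or 1.38-fold (1.28 to 1.48). It was 0.49 among irradiated (adjusted p = 3.67e-04) and 0.43 among unirradiated samples (adjusted p = 0.00125).

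Igfbp5, which encodes a binding protein that also attaches to extracellular matrix, was higher in mutant cells on 1 of its 2 probe sets. Probe set 1452114_s_at had 7.80, 7.88, 7.77 and 7.72 in irradiated mutant cells, against 6.48, 6.69, 6.87 and 7.09 in irradiated wild type cells. It had 7.54, 7.91, 7.99 and 8.19 in unirradiated mutant cells and 6.94, 7.16, 7.38 and 7.46 in unirradiated wild type cells. Each mutant sample was at 7.54 or more, and the highest wild type sample was at 7.46. The difference was 0.84 (SE 0.11, adjusted p = 7.90e-05), or 1.79-fold (1.53 to 2.10). It was 1.01 (adjusted p = 8.21e-04) in irradiated and 0.67 (adjusted p = 0.0196) in unirradiated samples, and the unirradiated call was lost without unirradiated mutant replicate 3 or 4 or unirradiated wild type replicate 1 or 2, at adjusted p of 0.0603, 0.0691, 0.0698 and 0.0602. The other probe set, 1422313_a_at, was not called, with a difference of 0.092 (interval -0.056 to 0.24, adjusted p = 0.479) and group means of 5.99 ± 0.21 and 5.96 ± 0.12 in irradiated mutant and wild type cells and 6.20 ± 0.048 and 6.04 ± 0.039 in unirradiated mutant and wild type cells (SD, n = 4). The 2 probe sets of Igfbp5 thus disagreed, and their intervals did not overlap.

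Some markers of fibroblast identity also differed between the genotypes. Of 12 fibroblast markers 4 were called higher in mutant cells and 0 lower, against 3.77% of all probe sets tested that were called higher. The 4 were the matrix proteoglycan genes Dcn, by 2.01 (adjusted p = 2.67e-05), and Lum, by 1.46 (adjusted p = 0.00505), the surface marker gene Thy1, by 0.49, and the growth factor receptor gene Pdgfra, by 0.49. The remaining fibroblast markers were not called, with differences from -0.014 (Vim) to 0.37 (Pdgfrb). The log2 of the summed linear level of the 12 was 16.68 to 17.04 in irradiated mutant and 16.63 to 16.78 in irradiated wild type cells, and 16.68 to 17.11 in unirradiated mutant and 16.66 to 16.86 in unirradiated wild type cells, so the sums overlapped. Of 5 cartilage and bone markers with a probe set, 2 passed the filter and 1, the cartilage collagen gene Col2a1, was lower in mutant cells, at -1.27 (adjusted p = 9.13e-07), where 673 of all 27083 probe sets were called lower. The other, the cartilage transcription factor gene Sox9, was not called and was at 0.28 (adjusted p = 0.0604). The summed level of that list was 7.48 to 7.78 in irradiated mutant and 8.22 to 8.52 in irradiated wild type cells, and 7.64 to 7.74 in unirradiated mutant and 7.95 to 8.29 in unirradiated wild type cells, and here the genotypes did not overlap.

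The adipocyte marker Fabp4 was lower in mutant cells, at -0.52, and the epithelial keratin gene Krt18 higher, by 0.46. They were 1 of 3 and 1 of 1 markers of those lists that passed the filter on array A. The epithelial marker Epcam, below the filter on array A, was tested on array B and not called, at 0.093 (limma, adjusted p = 0.463). Over all 27083 probe sets tested 673 were called lower and 1021 higher. The summed adipocyte level was 9.63 to 9.95 in irradiated mutant and 9.86 to 10.06 in irradiated wild type cells, and 9.72 to 10.11 in unirradiated mutant and 10.09 to 10.18 in unirradiated wild type cells. The summed epithelial level was 6.22 to 6.50 in irradiated mutant and 6.12 to 6.28 in irradiated wild type cells, and 6.36 to 6.53 in unirradiated mutant and 6.06 to 6.29 in unirradiated wild type cells. Of the macrophage and blood, skeletal muscle and neural lists 3, 1 and 4 markers passed on array A and limma called 0, with 1, 0 and 0 at an unadjusted p under 0.05. The muscle marker Ckm, below the filter on array A, was tested on array B and was at 0.086 (limma, adjusted p = 0.571). The 5 endothelial markers and Ptprc, the defining marker of blood cells, lay below the filter mean of 4.97, Ptprc at a mean of 1.89. The macrophage and blood markers that passed were Csf1r, Adgre1 and Lyz2, at means of 6.57, 6.23 and 6.32. Their genotype differences were 0.14, -0.029 and 0.43 (limma, adjusted p = 0.417, 0.92 and 0.0686). The part of these markers in the differences of Igf1, Igfbp3, Igfbp5 and Igfbp6 was not tested. In such bulk samples, fewer cells of a type and less RNA per cell cannot be told apart.

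Igfbp2, which encodes a binding protein abundant in embryonic tissue, was called higher in mutant cells with the replicate block and not without it. Probe set 1454159_a_at had 8.16, 7.996, 9.77 and 9.58 in irradiated mutant cells, against 7.80, 7.72, 8.40 and 8.42 in irradiated wild type cells. It had 8.29, 8.16, 9.59 and 9.78 in unirradiated mutant cells and 7.78, 7.84, 8.19 and 8.52 in unirradiated wild type cells. Replicates 3 and 4 were above replicates 1 and 2 in every group, and within each run the mutant samples lay above the wild type samples. How many of all probe sets had the genotypes apart within each run was not counted. The difference was 0.83, or 1.78-fold (1.14 to 2.78), with adjusted p = 0.0981 without the block and 2.79e-04 with it, and 3.39e-05 to 0.191 over all alternatives. By state it was 0.79 in irradiated (adjusted p = 0.0119 with the block, 0.441 without) and 0.87 in unirradiated samples (0.00634 with the block, 0.372 without). Over the alternatives those p-values ranged from 7.24e-04 to 0.759 and from 5.93e-04 to 0.724.

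Igfbp7, whose product is also found in basement membrane, was called with the block on 2 probe sets. The first, 1423584_at, had 12.48, 12.73, 13.31 and 13.18 in irradiated mutant cells, against 11.92, 11.91, 13.04 and 12.98 in irradiated wild type cells. It had 12.38, 12.60, 13.14 and 13.22 in unirradiated mutant cells and 11.83, 11.97, 12.72 and 12.90 in unirradiated wild type cells. Within the first run and within the second run each mutant sample lay above each wild type sample, while over both runs they overlapped. The share of all probe sets with such a separation within each run was not counted. The difference was 0.47, or 1.39-fold (0.997 to 1.93), with adjusted p = 0.217 without the block and 3.91e-05 with it, and 2.75e-05 to 0.369 over all alternatives. With the block it was called in irradiated (0.46, adjusted p = 0.00235, alternatives 0.00218 to 0.858) and in unirradiated samples (0.48, adjusted p = 0.00169, alternatives 0.00153 to 0.848).

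The second Igfbp7 probe set, 1423585_at, had 6.06, 6.14, 6.54 and 6.34 in irradiated mutant cells, against 5.58, 5.48, 6.38 and 6.26 in irradiated wild type cells. Its values were 5.81, 6.07, 6.34 and 6.86 in unirradiated mutant cells and 5.85, 5.40, 6.26 and 6.28 in unirradiated wild type cells. The genotypes overlapped in both runs. The difference was 0.33, with adjusted p = 0.290 without and 0.0209 with the block, and 0.0139 to 0.499 over all alternatives.

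Igfbp4, whose product is cut by the protease PAPPA to release IGF, had 6 probe sets and none was called between genotypes over both runs, with or without the block. Their differences ran from -0.099 to 0.12 and their adjusted p from 0.643 to 0.916. The interval was -0.087 to 0.23 for 1437406_x_at, which had the smallest error of the 6, and -0.72 to 0.53 for 1421991_a_at, which had the largest. Each of the 6 intervals held 0. In fits of each run alone, 1421992_a_at was called lower in mutant cells in the first run, at -0.34 (adjusted p = 0.0340), and was at 0.15 (adjusted p = 0.194) in the second. Probe set 1423756_s_at was called higher in mutant cells in the second run, at 0.29 (adjusted p = 0.0468), and was at -0.049 (adjusted p = 0.771) in the first. The estimates of these 2 probe sets thus had opposite signs in the 2 runs. So had those of 1423757_x_at (-0.11 in the first, 0.17 in the second) and 1437405_a_at (-0.10 and 0.20), while 1421991_a_at and 1437406_x_at kept their sign. The difference between the runs, tested by limma after the values were seen, was called for none of the 6. Its adjusted p was 0.0893 for 1421992_a_at and 0.385 for 1423756_s_at.

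**Figure D3:**
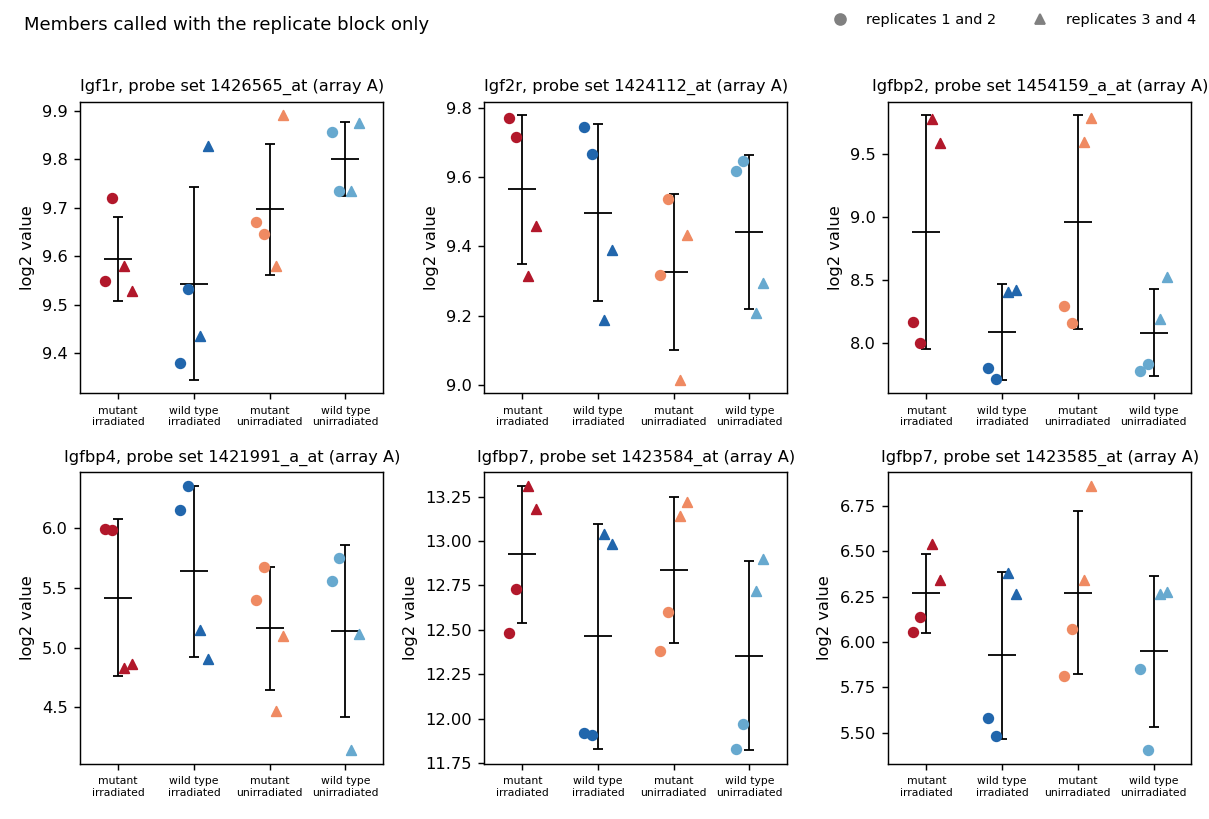
Log2 value of each sample (vertical axis) in the 4 groups for the 6 member probe sets called only with the replicate number as a block, in the genotype or an irradiation comparison. Symbols and bars are as in the plot of the called members: circles are replicates 1 and 2, triangles replicates 3 and 4, and bars show mean and SD (n = 4). In the Igfbp2 and the 2 Igfbp7 panels the triangles lie above the circles in every group, while in the Igfbp4 panel they lie below.

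Fewer members were called after irradiation. Without a block, limma called 0 of the 25 probe sets in either direction in mutant cells, in wild type cells or averaged over genotypes, against 2.67%, 2.31% and 7.51% of all probe sets. At an unadjusted p under 0.05 there were 1, 2 and 4 of the 25. The count at an adjusted p under 0.05 averaged over genotypes was 1 in place of 0 without unirradiated mutant replicate 1 or irradiated wild type replicate 4, and that in wild type cells was 1 in place of 0 without irradiated wild type replicate 4. With the replicate block the counts were 1, 1 and 4, against 7.15%, 6.11% and 14.9% of all. The 4 were 2 higher and 2 lower after irradiation and belonged to 4 genes. The median of the 25 averaged differences was 0.0055, against 0.013 over all probe sets. Of the 12 fibroblast markers 3 were called lower in irradiated cells and 0 higher, as was 1 of the 3 adipocyte markers past the filter. Over all 27083 probe sets 814 were called lower and 1220 higher in that comparison. The part of these markers in the results was not tested.

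Igfbp5 was called lower in irradiated cells with the block and not without it on 1452114_s_at, whose values are given above. The averaged difference was -0.28, with adjusted p = 0.0985 without and 0.0124 with the block (0.0124 to 0.361 over all alternatives, and 0.0397 without unirradiated mutant replicate 1). It was -0.17 in the first run and -0.39 in the second. In wild type cells it was -0.45, with adjusted p = 0.130 without and 0.0133 with the block (0.0133 to 0.318 over all alternatives), -0.46 in the first run and -0.44 in the second. In mutant cells it was -0.12 (adjusted p = 0.789), 0.12 in the first run and -0.35 in the second. The other Igfbp5 probe set differed by -0.15 (adjusted p = 0.192).

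Igf1r was lower in irradiated cells on 1426565_at with the block only. This probe set had 9.55, 9.72, 9.58 and 9.53 in irradiated mutant cells, against 9.67, 9.64, 9.58 and 9.89 in unirradiated mutant cells. It had 9.38, 9.53, 9.44 and 9.83 in irradiated wild type cells, against 9.86, 9.73, 9.73 and 9.88 in unirradiated wild type cells. Irradiated and unirradiated samples overlapped in both genotypes, and 2 of the 8 same-numbered pairs were higher in the irradiated sample. The averaged difference was -0.18, with adjusted p = 0.0935 without and 0.0294 with the block (0.0181 to 0.313 over all alternatives, and 0.0181 without irradiated wild type replicate 4), and it was -0.18 in each run. The other 4 Igf1r probe sets differed by -0.17 to 0.0098 and were not called.

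Igf2r was higher in irradiated cells on 1424112_at with the block only. It had 9.77, 9.71, 9.31 and 9.46 in irradiated mutant cells, against 9.32, 9.54, 9.02 and 9.43 in unirradiated mutant cells. It had 9.74, 9.66, 9.19 and 9.39 in irradiated wild type cells, against 9.62, 9.65, 9.21 and 9.29 in unirradiated wild type cells. The samples overlapped in both genotypes, and 7 of the 8 same-numbered pairs were higher in the irradiated sample. The averaged difference was 0.15, with adjusted p = 0.433 without and 0.0479 with the block (0.0479 to 0.646 over all alternatives), and it was 0.19 in the first run and 0.10 in the second. In mutant cells it was 0.24 (adjusted p = 0.464 without and 0.0423 with the block, 0.0423 to 0.765 over all alternatives), and in wild type cells 0.055 (adjusted p = 0.943). The other Igf2r probe set differed by 0.036 (adjusted p = 0.946).

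Igfbp4 was higher in irradiated cells on 1421991_a_at with the block only. It had 5.99, 5.98, 4.83 and 4.87 in irradiated mutant cells, against 5.40, 5.67, 4.47 and 5.10 in unirradiated mutant cells. It had 6.14, 6.35, 5.14 and 4.90 in irradiated wild type cells, against 5.55, 5.75, 4.14 and 5.12 in unirradiated wild type cells. The spread between replicates 1 and 2 and replicates 3 and 4 was wider than the step between irradiated and unirradiated samples. The averaged difference was 0.38, with adjusted p = 0.472 without and 0.0239 with the block (0.0119 to 0.718 over all alternatives). It was 0.52 in the first run, and the probe set did not pass the filter in a fit of the second run alone. The other 5 Igfbp4 probe sets differed by 0.0055 to 0.18 and were not called over both runs. In the first run alone 2 of them were called higher in irradiated cells, 1421992_a_at at 0.29 (adjusted p = 0.0491) and 1423756_s_at at 0.29 (adjusted p = 0.0394), against 0.062 and 0.013 in the second run, not called. Probe set 1423756_s_at was also called in mutant cells in the first run, at 0.49 (adjusted p = 0.0348), against -0.019 in the second.

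Igf1 and Igfbp3 were not called after irradiation, with or without the block. For Igf1 on 1434413_at the irradiated sample was the lower one in 8 of the 8 same-numbered pairs, with differences of -0.81 to -0.22, and the averaged difference was -0.48 (interval -0.90 to -0.058, adjusted p = 0.370, 0.314 with the block). The 3 array A probe sets of Igf1 differed by -0.35, -0.14 and -0.018. For Igfbp3 the averaged differences were -0.094 (interval -0.40 to 0.21) and 0.028 (interval -0.37 to 0.43), and neither interval reached the difference of 2.44 seen between genotypes. Igfbp6 differed by 0.11 (interval 0.011 to 0.22, adjusted p = 0.145), Igfbp2 by -0.036 and the 2 Igfbp7 probe sets by 0.099 and -0.012.

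Whether the response to irradiation differed between the genotypes was tested as an interaction. limma called 0 of the 25 member probe sets, with and without the block, and 0% and 0% of all 27083. At an unadjusted p under 0.05 there were 0 members and 394 of all probe sets without the block, and 2 members and 837 of all with it. The 2 were Igf1r 1446303_at, at 0.63 (interval 0.035 to 1.22 with the block), and Igfbp5 1452114_s_at, at 0.34 (0.014 to 0.66), both mutant minus wild type. In Igf1r 1446303_at unirradiated wild type replicate 2 was at 6.185, against 5.227, 5.021 and 4.936 in replicates 1, 3 and 4. For Igfbp3 1423062_at the interval of the interaction was -0.54 to 0.66 and for Igf1 1434413_at -0.67 to 1.01. Differences in response within these intervals were compatible with the values of 4 arrays a group. The intervals are not limits of detection, and differences outside them could also go uncalled after adjustment over all probe sets. The irradiation comparison in each genotype shares its samples with the genotype comparison in each state, and the values above are given side by side for that reason.

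The 2 runs of title numbers gave the genotype difference of the called genes the same sign and different sizes. For Igfbp3 it was 2.02 in the first and 2.86 in the second run on array A, and 1.94 and 2.97 on array B. Igfbp6 differed by 0.42 in the first run and 0.50 in the second, and Igfbp5 1452114_s_at by 0.97 and 0.72. The Igf1 probe sets differed by 0.79 and 2.15 (1434413_at), 0.74 and 1.43 (1437401_at), 0.72 and 0.76 (1452014_a_at), and 0.51 and 0.71 (1419519_at). Igfbp2 differed by 0.37 and 1.30, and Igfbp7 1423584_at by 0.64 and 0.30, the smaller one in the second run.

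The difference between the runs was itself tested, a comparison chosen after the values were seen. limma called 2 of the 25 probe sets, against 0.122% of all 27083: Igfbp2, where the genotype difference was larger in the second run by 0.93 (SE 0.12, adjusted p = 0.00402), and Igf1 1434413_at, by 1.36 (SE 0.16, adjusted p = 0.0118). In Igf1 1434413_at the mutant samples of the second run lay above those of the first in each irradiation state, and the wild type samples below. For Igfbp3 the run difference was 0.84 on array A (adjusted p = 0.0951) and 1.03 on array B (adjusted p = 0.126), not called. The other 3 Igf1 probe sets were not called either, with adjusted p between 0.194 and 0.976.

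**Figure D4:**
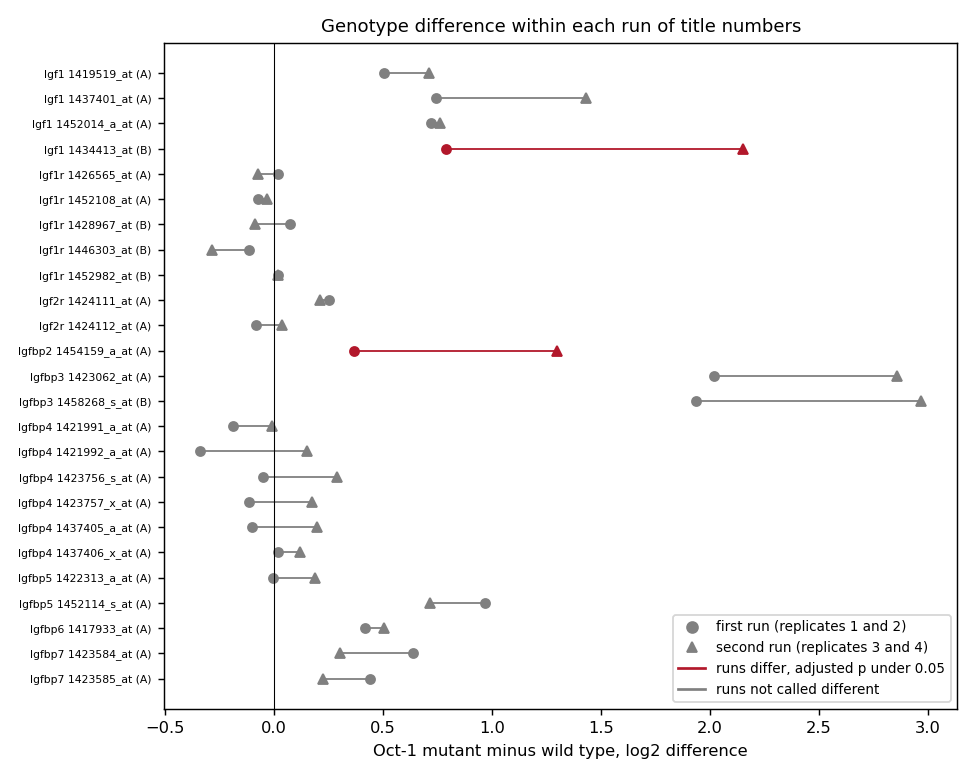
Genotype difference (Oct-1 mutant minus wild type, log2, horizontal axis) of each of the 25 member probe sets in the first run of title numbers (circles, replicates 1 and 2) and in the second (triangles, replicates 3 and 4). Red lines join the 2 probe sets whose runs differed at an adjusted p under 0.05, Igf1 1434413_at at 0.79 and 2.15 and Igfbp2 at 0.37 and 1.30.

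The members differed in what their values varied with. Genotype held 95.3% and 92.4% of the sum of squares over the 16 samples for the 2 Igfbp3 probe sets, 85.8% for Igfbp6, 73.2% for Igfbp5 1452114_s_at and 53.1% to 73.8% for the 4 of Igf1. The run held 51.2% to 73.2% for the 6 probe sets of Igfbp4, 54.4% for Igfbp2, 70.8% and 63.4% for the 2 of Igfbp7, and 59.7% and 60.4% for the 2 of Igf2r. For Igf1r it held 55.7% (1428967_at), 41.4% (1452982_at), 36.3% (1446303_at), 2.2% (1426565_at) and 1.0% (1452108_at). Igfbp2 and Igfbp7 were higher in the second run, by 1.06 and 0.84 (1423584_at), and the Igfbp4 probe sets lower, with differences of -1.03 to -0.21. The 2 Igf2r probe sets went opposite ways, at 0.66 (1424111_at) and -0.34 (1424112_at). Irradiation held at most 35.1%, for Igf1r 1426565_at. These shares are descriptions of 16 samples, and what differed between the runs was not tested.

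**Figure D5:**
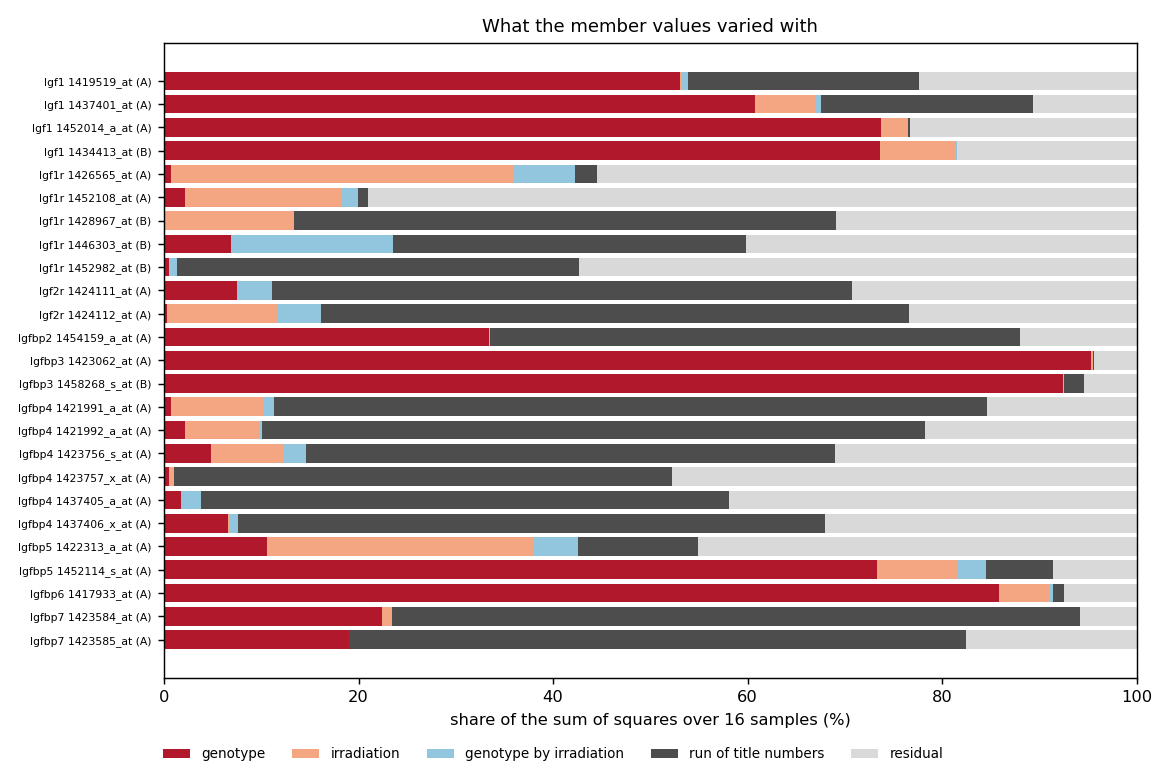
Share of the sum of squares over the 16 samples (horizontal axis, %) that went with genotype, irradiation, their interaction, the run of title numbers and the residual, for each of the 25 member probe sets. The 2 Igfbp3 bars are almost wholly genotype (95.3% and 92.4%), while the 6 Igfbp4 bars are mostly run and residual.

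For each called gene, the other probe sets of the same array type whose values were most like it over the 16 samples were taken by Pearson's r, as a description without a test, since the points share 4 group means and 2 runs. Closest to Igfbp3 1423062_at were Srpx (r = 0.984), Ccn3, a matricellular growth regulator, (0.982) and Cxcl14, a chemokine (0.981). Closest to Igfbp6 were Gpx3, the secreted glutathione peroxidase (0.965), Cdo1, a cysteine dioxygenase (0.959), and Scpep1, a serine carboxypeptidase (0.957). For Igfbp5 1452114_s_at they were Etl4 (0.953), Tmem119 (0.948) and Vdr, the vitamin D receptor gene (0.932). For Igf1 1452014_a_at they were Rpgrip1 (0.928), Apbb2 (0.898) and Srpx (0.897), so Srpx stood in the lists of both Igfbp3 and Igf1. After the run means were removed the 12 values lay between 0.897 and 0.986.

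Around the members stood 57 listed genes of IGF supply, processing and signalling, of which 45 had a probe set past the filter, 1 taken per gene. Between genotypes 7 were called higher in mutant cells and 3 lower (13 and 4 with the replicate block), against 1021 higher and 673 lower among all 27083 probe sets, or 1954 and 1814 with the block. The median of the 45 was 0.051, against 0.015 over all. The strongest was Ccn3, a secreted CCN family member, higher by 1.20 (adjusted p = 2.67e-08). Grb14, an adaptor that inhibits the insulin receptor, was lower, with a log2 difference of -0.55 (adjusted p = 2.73e-04), while its relative Grb10 was higher, by 0.21 (adjusted p = 0.00326). The growth hormone receptor kinase gene Jak2 was higher by 0.32 (adjusted p = 0.00587), and the docking protein gene Gab1 by 0.39 (adjusted p = 0.00658). Pik3cb, a catalytic subunit of phosphatidylinositol 3-kinase, was lower, at -0.53 (adjusted p = 0.0351). Igf2, the other ligand, was also among those higher in mutant cells, by 0.27 (adjusted p = 0.0140), and is named here after its value was seen.

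Among irradiated samples 3 of the 45 were called higher and 1 lower in mutant cells (6 and 1 with the block). Over all 27083 probe sets 383 (1.41%) were called higher and 182 lower, or 963 (3.56%) and 668 with the block. The 4 were Ccn3 by 1.30 (adjusted p = 1.48e-06), Grb10 by 0.24 (adjusted p = 0.0338), Gab1 by 0.47 (adjusted p = 0.0384) and, lower, Grb14 at -0.59 (adjusted p = 0.00617). Among unirradiated samples 3 were higher and 1 lower (9 and 1 with the block), where 394 of all (1.45%) were called higher and 190 lower, or 987 (3.64%) and 752 with the block. These 4 were Ccn3 by 1.09 (adjusted p = 1.00e-05), Jak2 by 0.39 (adjusted p = 0.0326), the transcription factor gene Foxo3 by 0.69 (adjusted p = 0.0347) and, lower, Grb14 at -0.51 (adjusted p = 0.0171). That count of 4 became 1 without unirradiated mutant replicate 4 or unirradiated wild type replicate 3, and 2 without unirradiated wild type replicate 1, 2 or 4. Among irradiated samples the count of 4 became 2 without irradiated mutant replicate 2 or 3 or irradiated wild type replicate 1 or 4.

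Averaged over genotypes, 2 of the 45 were called higher and 4 lower in irradiated cells (5 and 9 with the block), where 7.51% of all probe sets were called in either direction (14.9% with the block). Akt1, the kinase downstream of the receptor, was higher by 0.19 (adjusted p = 0.0201) and Foxo3, which AKT restrains, by 0.41 (adjusted p = 0.0343). The Foxo3 means of irradiated and unirradiated samples were 7.299 and 7.205 in mutant cells, and 7.247 and 6.516 in wild type cells. Its averaged difference thus came mostly from wild type cells. The unirradiated wild type samples, at 6.49 to 6.56, also entered its genotype call among unirradiated samples. Gnptab, which makes the mannose 6-phosphate tag that IGF2R binds, was lower, at -0.31 (adjusted p = 0.00798), and so were the mRNA binding protein gene Igf2bp3, at -0.28 (adjusted p = 0.0308), Ccn3, at -0.25 (adjusted p = 0.0396), and the receptor substrate gene Irs1, at -0.19 (adjusted p = 0.0497). In mutant cells Gnptab alone was called, lower, at -0.40 (adjusted p = 0.0256), and in wild type cells Foxo3 alone, higher by 0.73 (adjusted p = 0.0225). With the block the counts were 5 and 2. Over all probe sets 2.67% and 2.31% were called in these comparisons (7.15% and 6.11% with the block), so 1 call among 45 genes is near that share. The count of 6 became 2 without unirradiated mutant replicate 3, and 3 without irradiated mutant replicate 2 or 4, unirradiated mutant replicate 2, irradiated wild type replicate 3 or 4, or unirradiated wild type replicate 1, 2 or 3. The count in mutant cells became 0 without irradiated mutant replicate 1, 3 or 4 or unirradiated mutant replicate 2 or 3. That in wild type cells became 0 without irradiated wild type replicate 2 or unirradiated wild type replicate 1, 2 or 3. As an interaction limma called 0 of the 45, and 1 had an unadjusted p under 0.05.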

How the data were processed

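RNA of 16 extracts was hybridised to 2 Affymetrix mouse array types, 1 value per probe set and sample. The deposited values are on a log2 scale as the authors left them. They spanned 0.26 to 15.75 (array A) and 0.097 to 15.51 (array B), which is the only basis for the log base. The sources used here do not say how the authors summarised and normalised the scans. The values were used as deposited, with no second normalisation, and neither background nor saturation could be read from them. Samples were grouped by their labels. The replicate number of unirradiated mutant replicate 1 on array A was taken from the label of the same extract on array B.

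Probe sets were named through GEO's platform annotation, with symbols updated by gene ID. On array A 20393 of 22690 probe sets had 1 gene, 691 several and 1606 none, and on array B 14674 of 22575 had 1, 245 several and 7656 none. After 64 control probe sets per array type were left out, probe sets whose mean over the 16 samples reached the 40th percentile, 4.97 (array A) and 3.36 (array B), were tested, 13576 and 13507. Group means were fitted per array type with limma 3.58.1 (R 4.3.3; lmFit, then eBayes with an intensity trend). Comparisons were taken as contrasts, and p-values were adjusted by Benjamini-Hochberg over all probe sets of the array type and comparison, with a threshold of 0.05. The 2 array types were tested separately. Counts over 27083 probe sets join them. Tables and plots were made with Python 3.11.15, numpy 2.4.6, pandas 2.3.3, scipy 1.17.1 and matplotlib 3.10.9. No sequencing depth applies, and the number of arrays limits the precision.

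Deviations of same-numbered samples from their group means had correlations of 0.32 to 0.72 (array A) and 0.24 to 0.60 (array B). Every pair was over 0.1, the limit set for taking the numbers to pair the samples. Samples of the same run with different numbers correlated almost as well (median 0.556, against 0.577 for the same number, on array A, and 0.403 against 0.442 on array B), and 8 and 13 of 16 samples matched their own number best, so pairing by number and by run cannot be told apart here. A run block is therefore among the alternatives, and a fit with the replicate number as a block is given beside the fit without it where it changes a call. The other alternatives were quantile normalisation, no filter, no intensity trend, array weights, the run as a block, each run alone and each sample left out.

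The members and gene lists were chosen with earlier results of these data known. Member probe sets called in any comparison, with or without the block, are described with every sample value, pathway genes by the smallest p (up to 6 per comparison), and likeness by the 3 highest correlations. The test of the genotype difference between runs and the motifs other than the exact octamer were added after the data were seen. Protein sequences were not used here.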

Additional observations from a re-analysis of the deposited data

Results flagged for a closer look

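Of 104 sets of 4 values, 1 per member probe set and group, 3 held a sample whose gap to its nearest neighbour took up more of the group's range than Dixon's 95% critical value. Chance gives this in about 1 in 20 groups. In Igf1 1419519_at, unirradiated mutant replicate 3 stood above the other unirradiated mutant samples at 7.35. In Igf1r 1446303_at on array B, irradiated wild type replicate 2 stood apart at 5.08. In Igfbp7 1437804_at, the probe set that did not pass the filter, unirradiated mutant replicate 4 stood apart at 1.30.

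The genotype difference differed between the runs of title numbers for 2 of the 25 probe sets tested. For Igfbp2 it was larger in the second run by 0.93 (limma, adjusted p = 0.00402), with all 4 mutant samples above all 4 wild type samples in each run. For Igf1 1434413_at it was larger by 1.36 (limma, adjusted p = 0.0118), again with no overlap between genotypes in either run. The share of all probe sets without overlap within each run was not counted. Run and replicate number go together in every group, and the part of the runs in these differences was not tested.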

How the results depend on the processing

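None of the single calls described with every sample value changed sign under an alternative. Igfbp4 had no probe set called between genotypes over both runs, and some of its estimates did change sign between the runs, as given in the text. In the first and second run 1421992_a_at was at -0.34 and 0.15 and 1423756_s_at at -0.049 and 0.29. For 1423757_x_at the values were -0.11 and 0.17, and for 1437405_a_at -0.10 and 0.20. Of the 21 single calls made without a block, 21 were kept with quantile normalisation, without the intensity trend, with the replicate block and with the run as a block, and 20 without the filter and with array weights. The call not kept in those last fits was Igf1 1434413_at among unirradiated samples (adjusted p = 0.0724 and 0.0985). In the first run alone 17 were kept and in the second 19, with fewer samples by construction. Of 336 fits that left out 1 sample, 306 kept the call. The replicate block added 16 single calls, given in the text, of which the run as a block made 14, and it changed no other call. Igfbp4 1421991_a_at gave no value in the second run alone.

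Counts of the 25 member probe sets moved as follows. Irradiation in mutant cells gave 0, and 1 with the replicate block and in the first run alone (0 to 0 without 1 sample). Irradiation in wild type cells gave 0, and 1 with the replicate block and with the run as a block (0 to 1). Averaged over genotypes it gave 0, and 4 with either block, 3 in the first run and 1 in the second (0 to 1). Mutant against wild type among irradiated samples gave 6, and 10 with either block (5 to 8). Among unirradiated samples it gave 7 and, with the replicate block, 10 (3 to 7), and averaged over states 8 and 11 (8 to 8). The interaction gave 0 (0 to 0).

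Counts of the 45 pathway genes moved more. Irradiation in mutant cells gave 1, and 5 with the replicate block, 6 with the run as a block and 0 in the second run (0 to 1). In wild type cells it gave 1, and 2 with either block, with array weights and in the first run (0 to 1). Averaged over genotypes it gave 6, and 3 without the filter, 14 with the replicate block, 13 with the run as a block and 3 in the first run (2 to 6). Among irradiated samples the genotypes gave 4, and 2 without the filter, 7 with either block and 2 in the first run (2 to 5). Among unirradiated samples they gave 4, and 10 with the replicate block, 8 with the run as a block and 2 in the first run (1 to 4). Averaged over states they gave 10, and 17 with the replicate block, 18 with the run as a block and 3 in the first run (7 to 10). The interaction gave 0 (0 to 0). The cause of these changes was not tested.

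The deposited values carry no detection calls, so no floor was set for low probe sets, and the precision is that of 4 samples a group.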
